A study of Mus musculus with 2 samples.

Results

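The inducible heat shock chaperones described here are 9 genes, Hspa1a, Hspa1b, Hspb1, Dnajb1, Hsph1, Hsp90aa1, Hspa8, Hspd1 and Hspe1, out of 32285 genes counted in each library. They were chosen by name, and each name matched 1 row of the gene annotation. Their transcripts were followed in blood vessel cells, tubule cells, leukocytes and free RNA of mouse kidneys taken 72 h after cisplatin, a platinum chemotherapy drug that injures the kidney, or after saline.

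Chaperones bind unfolded or newly made proteins and help them fold, or hold them in solution until they can be refolded. When unfolded protein accumulates in the cytosol, the transcription factor HSF1 forms trimers, binds heat shock elements built from repeated GAA units, and raises transcription of chaperone genes. Hspa1a and Hspa1b encode the stress-inducible HSP70, whose cycle is driven by the J-domain protein Dnajb1 and reset by the nucleotide exchange factor Hsph1. Hspb1 encodes the small heat shock protein HSP27, Hsp90aa1 the inducible form of HSP90, and Hspa8 the constitutive HSP70 of all cells. Hspd1 and Hspe1 encode the HSP60 and HSP10 subunits of the mitochondrial folding chamber.

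The cisplatin library came from male C57BL6/J mice of 10 to 12 weeks given 20 mg/kg cisplatin, and the saline library from like mice given saline. The series text gives 5 mice and a total of 10 kidneys per condition, in 1 library each, so no replicate exists and every interval below covers counting error only. Digested kidney cells had passed magnetic beads against CD31 and then podoplanin, both found on the surface of lymphatic endothelium, and transcripts were counted from their 3′ ends by unique molecular identifiers (UMIs). Barcodes with at least 500 UMIs and at most 20% mitochondrial UMIs numbered 1729 in the cisplatin library, with a median of 746 UMIs, and 627 in the saline library, with a median of 896 UMIs, and no kept barcode was shared. A further 1712 cisplatin barcodes and 3 saline barcodes were over the mitochondrial limit.

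The label of lymphatic endothelium was not borne out by its markers. Of 7 lymphatic genes, at least 2 were seen in 4 of 1729 cisplatin barcodes and in 1 of 627 saline barcodes. Prox1, which sets lymphatic identity, had a UMI in 11 cisplatin and 4 saline barcodes. Barcodes were therefore described by gates, which required at least 2 distinct markers of a class of 10 and more than for either other class. The endothelial gate held 210 cisplatin and 445 saline barcodes, and its capillary, glomerular and arterial parts held 88, 58 and 14 cisplatin barcodes against 214, 37 and 132 saline barcodes. The remaining 50 cisplatin and 62 saline endothelial barcodes had no leading vessel type and are called unassigned endothelium. The other gates were proximal tubule, with 1186 cisplatin and 146 saline barcodes, and leukocytes, with 74 cisplatin and 3 saline barcodes. Free RNA, released by broken cells into every droplet, was read from barcodes of 1 to 100 UMIs, which held 2140605 UMIs in the cisplatin library and 3703779 in the saline library.

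Levels are given in CPM, the UMIs of a gene per 1000000 UMIs of the gate. In endothelial barcodes the 9 chaperones together stood at 1980 CPM in the cisplatin library and 3822 CPM in the saline library, a ratio of 0.518 (95% interval 0.492 to 0.546). A member was counted as lower or higher where its CPM differed at least 2-fold and both libraries together held at least 20 UMIs. By that rule 5 of the 9 were lower in cisplatin endothelium (Hspa1a, Hspa1b, Dnajb1, Hspb1 and Hsp90aa1), none was higher, and 4 were neither. Over all 9315 genes measured in this gate, 5.49% were at least 2-fold lower and 13.2% at least 2-fold higher in the cisplatin library. The median log2 ratio of the members was -1.06, against 0.06 for all genes.

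**Figure D1:**
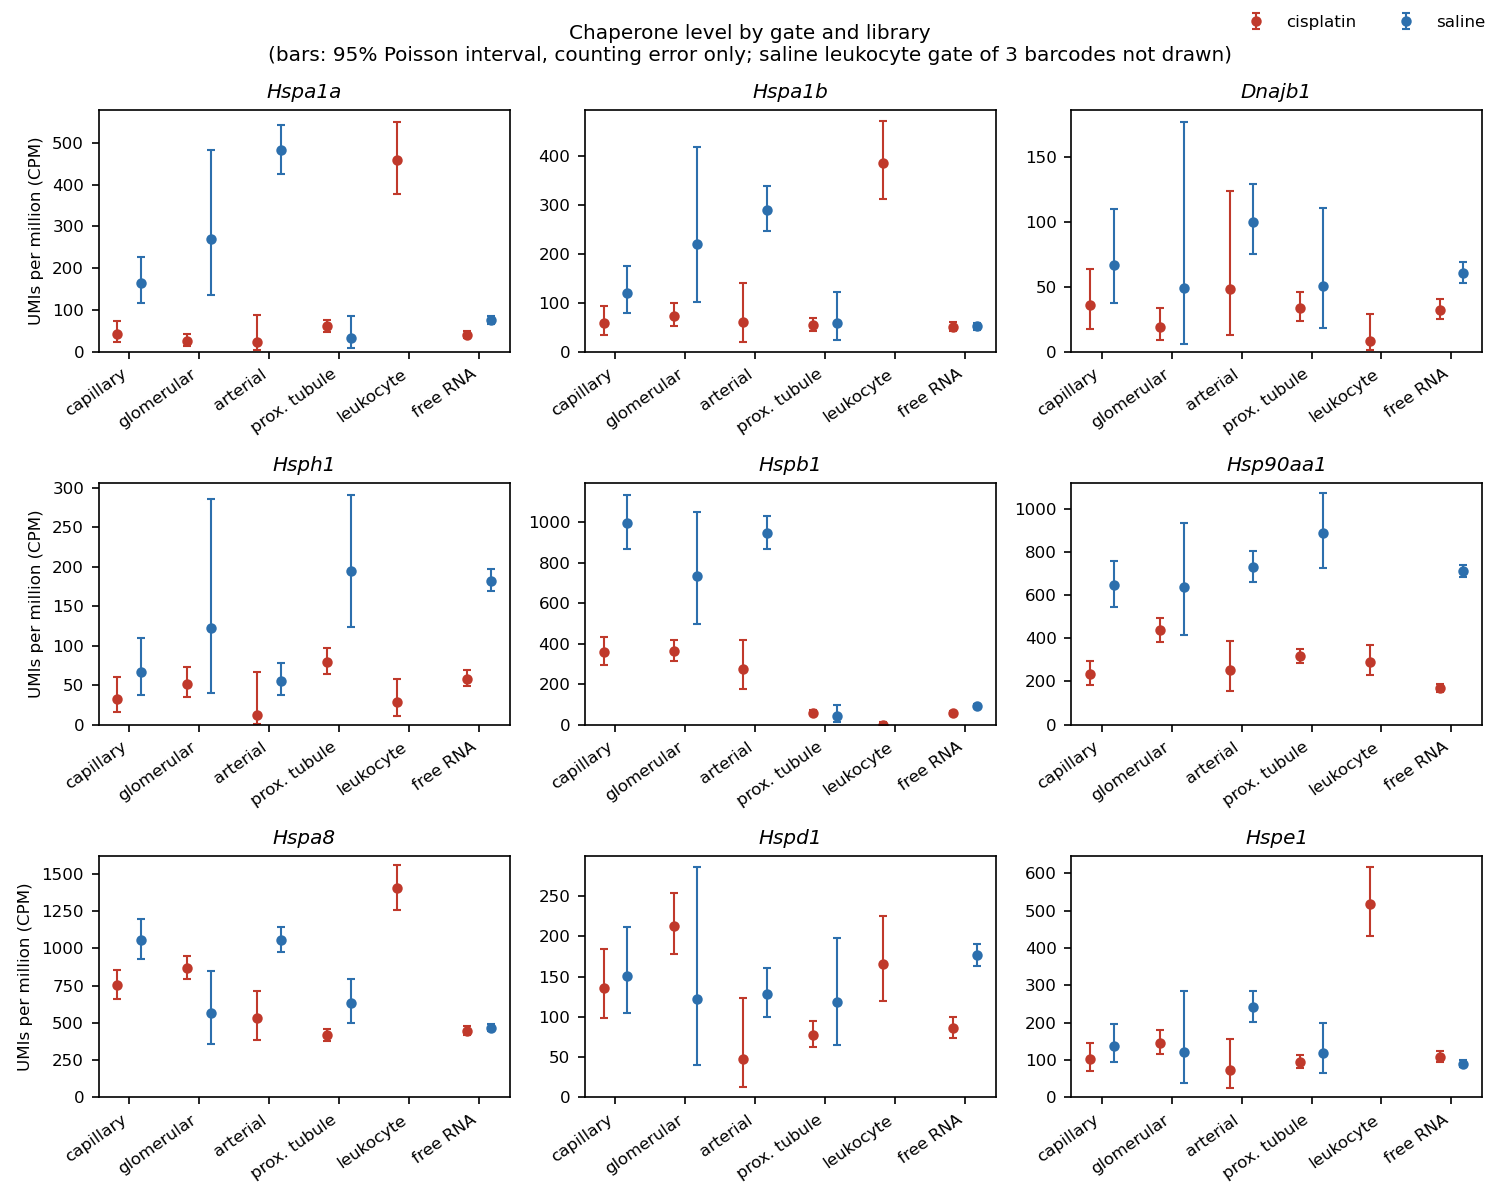
Level of each of the 9 chaperones in CPM (vertical axis) in the gates and in free RNA (horizontal axis; unassigned endothelium is not drawn), with cisplatin points left of saline points and bars for 95% Poisson intervals; the saline leukocyte gate of 3 barcodes is not drawn. Hspa1a stands at 24.1 CPM in cisplatin and 482.1 CPM in saline arterial endothelium, and at 42.3 CPM in cisplatin and 164.7 CPM in saline capillary endothelium.

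Hspa1a and Hspa1b are neighbouring genes on the minus strand of chromosome 17, at chr17:34969190-34972156 and chr17:34956436-34959238 of GRCm38. They encode nearly the same protein from near-identical single-exon copies, so the split of UMIs between them depends on few bases and is uncertain. The 250 bases before their RefSeq starts (GRCm38.p6) are shown because they carry the same heat shock letters at the same distance. Capitals mark the match to GAANNTTC, which begins 104 bases before the start.
Hspa1a, chr17:34972157-34972406, minus strand: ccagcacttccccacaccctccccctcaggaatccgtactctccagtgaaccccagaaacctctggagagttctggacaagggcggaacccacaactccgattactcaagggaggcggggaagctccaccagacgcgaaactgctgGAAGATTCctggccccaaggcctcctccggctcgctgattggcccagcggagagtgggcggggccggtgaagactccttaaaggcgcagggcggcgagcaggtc
Hspa1b, chr17:34959239-34959488, minus strand: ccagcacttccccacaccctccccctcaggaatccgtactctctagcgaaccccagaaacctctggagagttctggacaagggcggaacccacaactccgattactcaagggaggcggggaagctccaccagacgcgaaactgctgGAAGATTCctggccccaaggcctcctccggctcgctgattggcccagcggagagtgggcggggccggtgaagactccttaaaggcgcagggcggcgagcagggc
The windows are identical at 247 of 250 bases (98.8%). Counted from 1 at the 5′ end of the Hspa1a window, the differences are C44T, T47C and T249G, all outside the match.

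Hspa1a, the inducible HSP70, had 66 UMIs (56.2 CPM) in cisplatin endothelium and 372 UMIs (387.8 CPM) in saline endothelium, a ratio of 0.145 (0.11 to 0.189). Its ratio lay below that of the other 8 members in this gate, and with each barcode reduced to 500 UMIs it was 0.246. Of the 66 cisplatin UMIs, 23 (34.8%) came from 1 barcode. Without the barcode richest in Hspa1a in each library the levels were 38.1 CPM in cisplatin and 365.1 CPM in saline, a ratio of 0.104 (0.0742 to 0.144). Hspa1b stood at 76.6 CPM in cisplatin and 238.7 CPM in saline endothelium, a ratio of 0.321 (0.249 to 0.411). With the copies added, which removes the question of how reads were split, the ratio was 0.212 (0.177 to 0.253). Hspa1a made up 42.3% of the pair's UMIs in cisplatin endothelium (exact interval 34.4 to 50.5) and 61.9% in saline endothelium (57.9 to 65.8), and 44.1% (37.0 to 51.4) and 59.5% (55.0 to 64.0) in free RNA of the cisplatin and saline libraries.

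The level of Hspa1a differed between arterial and capillary endothelium in the saline library, while in cisplatin the intervals of the vessel gates overlapped. Arterial endothelium had 24.1 CPM (2 UMIs in 14 barcodes) in the cisplatin library and 482.1 CPM (271 UMIs in 132 barcodes) in the saline library. The arterial ratio of 0.05 has an interval of 0.00602 to 0.182, since 2 UMIs stand behind the cisplatin value. Its size depended on the processing: the ratio was 0.349 after thinning to 500 UMIs and 0.398 without barcodes that held a podocyte or distal tubule marker, which left 6 cisplatin and 64 saline barcodes. Glomerular endothelium had 25.6 CPM in the cisplatin and 269.6 CPM in the saline library, but 8 of the 15 cisplatin UMIs and 8 of the 11 saline UMIs came from 1 barcode each. Without those barcodes the glomerular levels were 14.9 CPM in cisplatin (7 UMIs) and 75.7 CPM in saline (3 UMIs), a ratio of 0.197 with an interval that reaches 1 (0.045 to 1.18), against 0.095 with them.

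Capillary endothelium had 42.3 CPM of Hspa1a in the cisplatin and 164.7 CPM in the saline library. Unassigned endothelium held 36 of the 66 cisplatin UMIs and stood at 181.6 CPM in cisplatin and 402.4 CPM in saline, a ratio of 0.451 (0.287 to 0.702). In cisplatin the intervals of the capillary, glomerular and arterial levels overlapped one another, and that of the unassigned level (127.2 to 251.4 CPM) lay above them. Of its 36 cisplatin UMIs 23 came from 1 barcode, without which the level was 85.4 CPM. In saline the arterial level was 2.93 times the capillary level (2.07 to 4.25), and the interval of the glomerular level, from 11 UMIs (134.6 to 482.5 CPM), overlapped those of the capillary and arterial levels. Hspa1b had the same order in saline, at 2.41 times as much in arterial as in capillary endothelium (1.6 to 3.77).

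Saline arterial barcodes did not carry these transcripts evenly. Of 132 barcodes, 38 held both genes, 24 held Hspa1a without Hspa1b, 12 held Hspa1b without Hspa1a, and 58 held neither. The barcodes with both had a median of 6418 UMIs and those with neither 1324 UMIs, and depth moved with detection. Across these barcodes the CPM of Hspa1a and Hspa1b had a Spearman rho of 0.48, and the other 35 pairs of members lay between 0.03 and 0.36; barcodes of 1 library share its free RNA and their depth, so these are descriptions.

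Hspb1, which caps actin filaments and holds unfolded clients, lies on chromosome 5 (chr5:135887919-135889563, plus strand). Its upstream sequence is shown because it holds separate matches to GAANNTTC, in capitals, which begin 117 and 97 bases before the RefSeq start.
Hspb1, chr5:135887772-135887859, plus strand: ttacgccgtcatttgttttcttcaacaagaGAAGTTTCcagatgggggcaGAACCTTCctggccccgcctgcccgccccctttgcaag
Hspb1 stood at 353.3 CPM (415 UMIs) in cisplatin endothelium and 939.2 CPM (901 UMIs) in saline endothelium, a ratio of 0.376 (0.334 to 0.423). The ratio was 0.359 in capillary, 0.495 in glomerular and 0.292 in arterial endothelium, and the glomerular one was 0.608 without the barcode richest in Hspb1 in each library. Without barcodes that held a podocyte or distal tubule marker, which left 90 cisplatin and 296 saline barcodes, the endothelial ratio was 0.602 and no longer past 2-fold.

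Among the 9 members, Hspb1 had the largest ratio of endothelium over tubule in both libraries. Its level in endothelium was 6.03 times that in proximal tubule in the cisplatin library (4.66 to 7.92) and 22.2 times in the saline library (9.49 to 68.6). Within proximal tubule it stood at 58.5 CPM in cisplatin and 42.2 CPM in saline (5 UMIs), a ratio of 1.39 (0.566 to 4.4). Leukocytes held 0 Hspb1 UMIs in both libraries, which allows up to 12.2 CPM in the cisplatin library by a limit of 3 counts and tells little for the 3 saline barcodes.

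Dnajb1, the J-domain partner of HSP70 (chr8:83608193-83612653, plus strand), stood at 27.2 CPM in cisplatin endothelium and 85.5 CPM in saline endothelium, a ratio of 0.319 (0.205 to 0.485). Hsph1, the HSP110 exchange factor (chr5:149614287-149636376, minus strand), stood at 46.8 CPM in cisplatin and 66.7 CPM in saline endothelium, a ratio of 0.702 (0.48 to 1.02), so its interval reaches 1. A match to TTCNNGAA is shown in capitals with 6 bases on either side; it begins 33 and 54 bases before 2 RefSeq starts that lie inside the gene's span, and itself falls in an annotated Hsph1 exon.
Hsph1, chr5:149636356-149636375, minus strand: gaatctTTCTCGAAggctcg
Both genes were sparse in each vessel gate, with 1 to 30 UMIs in the cisplatin gates and 2 to 56 in the saline gates. In capillary endothelium the ratios were 0.535 (0.222 to 1.25) for Dnajb1 and 0.487 (0.196 to 1.16) for Hsph1. In the cisplatin library endothelium had 0.591 times as much Hsph1 as proximal tubule (0.415 to 0.835), and in the saline library 0.343 times as much (0.21 to 0.579).

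Hsp90aa1, the inducible HSP90 (chr12:110690605-110702728, minus strand), stood at 341.4 CPM in cisplatin and 712 CPM in saline endothelium, a ratio of 0.479 (0.423 to 0.543). The ratio was 0.504 when mitochondrial UMIs were left out of the total, just short of 2-fold. It was 0.363 in capillary, 0.346 in arterial and 0.686 (0.457 to 1.07) in glomerular endothelium. Of the 256 Hsp90aa1 UMIs in cisplatin glomerular barcodes, 86 came from 1 barcode.

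Hspa8, the constitutive HSP70 (chr9:40800984-40810087, plus strand), stood at 775.6 CPM in cisplatin and 1028 CPM in saline endothelium, a ratio of 0.755 (0.689 to 0.827). Capillary endothelium had 754 CPM in cisplatin and 1055 CPM in saline, and arterial endothelium had 530.3 CPM in cisplatin and 1057 CPM in saline. Glomerular endothelium went the other way, with 870.7 CPM in cisplatin and 563.8 CPM (23 UMIs) in saline, a ratio of 1.54 (1.02 to 2.46). That ratio was 1.36 without barcodes that held a podocyte or distal tubule marker, and 1.48 with an interval that reaches 1 (0.957 to 2.42) without the barcode richest in Hspa8 in each library. Hspa8 was less than 2-fold apart in each vessel gate, with an arterial ratio of 0.502 (0.361 to 0.682).

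Hspd1 and Hspe1 lie head to head on chromosome 1, at chr1:55077835-55088243 on the minus strand and chr1:55088132-55091307 on the plus strand, so that their annotated spans overlap. A RefSeq start of Hspd1, at 55087932, lies inside its span, with 215 bases between it and the Hspe1 start at 55088148. The stretch shown lies between these starts, in an annotated Hspd1 exon, and its overlapping heat shock letters fall in the search windows of both genes: TTCNNGAA, GAANNTTC and TTCNNGAA run together in the capitals, beginning 89, 84 and 79 bases before the Hspe1 start. The other RefSeq start of Hspd1, at 55088243, lies nearer to the Hspe1 start, and its window held 0 matches.
Hspe1, chr1:55088053-55088082, plus strand: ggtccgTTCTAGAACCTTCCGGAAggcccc
Hspd1 stood at 169.4 CPM in cisplatin and 142.8 CPM in saline endothelium, a ratio of 1.19 (0.95 to 1.49). This value depended on few barcodes: 49 of its 199 cisplatin UMIs came from 1 barcode, the ratio was 0.79 when each barcode weighed the same, and it was 0.666 without barcodes that held a podocyte or distal tubule marker. Hspe1 stood at 133.7 CPM in cisplatin and 221 CPM in saline endothelium, a ratio of 0.605 (0.489 to 0.747), and 1.07 without those barcodes.

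The heat shock letters were searched in the 250 bases before the RefSeq start of each gene, as GAANNTTC and TTCNNGAA, each of which reads the same on both strands. Of the 9 members, 7 were in the promoter table, 6 of these held at least 1 match in at least 1 window, and 3 (Hspd1, Hspe1 and Hspb1) held at least 2 in 1 window. Of all 27025 genes in the table, 14.5% held at least 1 match and 1.67% at least 2. Neither Dnajb1 window held these letters. Matches of GAANNTTC and TTCNNGAA can overlap, as in the Hspe1 stretch, and a match is a description of letters.

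**Figure D2:**
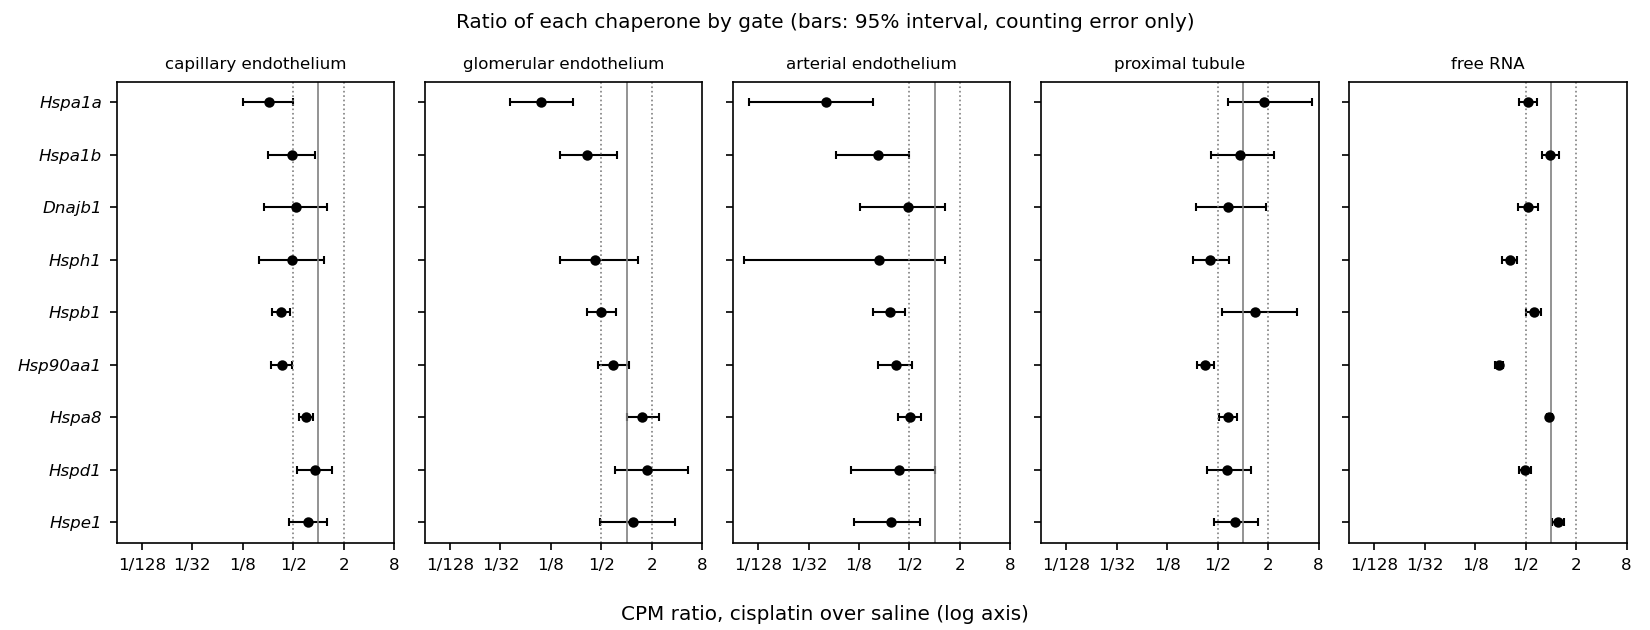
CPM ratio of cisplatin over saline for each chaperone (horizontal log axis, bars for 95% intervals of counting error) in the vessel gates, proximal tubule and free RNA; dotted lines mark 2-fold, the solid line marks a ratio of 1, and Dnajb1 in glomerular endothelium is left out with 13 UMIs. Hspa1a lies at 0.257, 0.095 and 0.05 in capillary, glomerular and arterial endothelium and at 1.78 in proximal tubule.

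Counted by vessel gate, 5 of 9 members were lower in cisplatin capillary endothelium, 4 of 8 measured members in glomerular endothelium and 8 of 9 in arterial endothelium, and none was higher. The share of all measured genes at least 2-fold lower was 10.0% in capillary, 12.5% in glomerular and 19.5% in arterial endothelium, and the share at least 2-fold higher was 10.2%, 26.1% and 7.40%. The arterial background is high and 14 cisplatin barcodes stand behind that gate, so its count of 8 rests on few cells. In unassigned endothelium 3 of 8 measured members were lower (Hspa1a, Hspb1 and Hsp90aa1) and none was higher, against 9.53% of all measured genes lower and 9.75% higher. Hspb1 stood there at 348 CPM in cisplatin and 865.6 CPM in saline (0.402, 0.294 to 0.547), and Hsp90aa1 at 262.3 CPM in cisplatin and 766.9 CPM in saline (0.342, 0.24 to 0.482). The Hspb1 ratio there was 0.562 without the barcode richest in Hspb1 in each library. The summed level of the members was 1755 CPM in cisplatin and 3405 CPM in saline capillary endothelium, a ratio of 0.515 (0.461 to 0.576). It was 2199 CPM in cisplatin and 2843 CPM in saline glomerular endothelium (0.773, 0.639 to 0.943), and 1326 CPM in cisplatin and 4033 CPM in saline arterial endothelium (0.329, 0.269 to 0.398). Unassigned endothelium had 1957 CPM in cisplatin and 3933 CPM in saline (0.498, 0.435 to 0.569).

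The libraries differed in their mix of vessel gates, and arterial barcodes, which had the most Hspa1a in saline, were 14 of 210 endothelial barcodes in cisplatin and 132 of 445 in saline. A Mantel-Haenszel ratio, which compares within each vessel gate and then pools, was 0.229 for Hspa1a, 0.386 for Hspa1b and 0.485 for Dnajb1, each nearer 1 than the ratio over all endothelium. For Hspb1 it was 0.366 and for Hsp90aa1 0.388. Among the members counted as neither, Hsph1 stood at 0.502 (0.702 over all endothelium) and Hspa8 at 0.698 (0.755). Hspe1 stood at 0.59 (0.605), and Hspd1 at 0.824, below 1 where it was 1.19 over all endothelium. The pooled value for the 9 members together was 0.488, against 0.518 without the stratification.

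Transcripts of other kidney cells also moved with the comparison. In endothelial barcodes, 6 podocyte markers summed to 761.9 CPM in cisplatin and 181.4 CPM in saline, and 6 markers of collecting duct and distal tubule to 1602 CPM in cisplatin and 95.9 CPM in saline, with all 6 of each list detected in both libraries. Pericyte and smooth muscle markers summed to 360.1 CPM in cisplatin (5 of 6 detected, Cnn1 at 0) and 21.9 CPM in saline (3 of 6 detected, with Pdgfrb, Rgs5 and Cnn1 at 0). Proximal tubule markers summed to 401 CPM in cisplatin and 214.7 CPM in saline, with 10 of 10 detected in both, and leukocyte markers to 47.7 CPM in cisplatin (10 of 10) and 17.7 CPM in saline (6 of 10). The glomerular gate of the cisplatin library held 736 podocyte marker UMIs, against 4 in saline, and 1 of its barcodes held 116215 UMIs. What part these transcripts had in the chaperone ratios was not tested beyond leaving out barcodes with podocyte or distal tubule markers, which gave 0.597 for the 9 members together.

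At an equal depth of 500 UMIs per barcode, shares of barcodes with a chaperone UMI could be compared without the depth difference. Hspa1a was found in 3 of 210 cisplatin endothelial barcodes (1.43%, exact interval 0.296 to 4.12) and in 34 of 445 saline ones (7.64%, 5.35 to 10.5). Before thinning the shares were 10.0% (6.3 to 14.9) in cisplatin and 25.4% (21.4 to 29.7) in saline. Hspa1a was seen in 0 of 88 thinned capillary and 0 of 58 thinned glomerular barcodes of the cisplatin library, with exact upper limits of 4.11% and 6.16%. The saline shares were 5.61% (2.93 to 9.59) in capillary and 10.8% (3.03 to 25.4) in glomerular barcodes, so the intervals of the libraries overlap in both gates.

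The thinned share with Hspb1 was 12.4% (8.25 to 17.6) in cisplatin and 28.1% (24.0 to 32.5) in saline endothelium, and that with Hsp90aa1 was 12.4% (8.25 to 17.6) in cisplatin and 24.3% (20.4 to 28.5) in saline. For Hspa8 it was 29.5% (23.4 to 36.2) in cisplatin and 34.6% (30.2 to 39.2) in saline, and the intervals overlap. No kidney cell type is known to lack HSP70 altogether, so thinned proximal tubule barcodes serve as the comparison: 1.6% (0.967 to 2.49) held Hspa1a in cisplatin and 1.37% (0.166 to 4.86) in saline. The thinned endothelial share of 1.43% in cisplatin is within that range, so at this depth Hspa1a in cisplatin endothelium could not be told from its level in tubule barcodes. Before thinning, median depths were 1276 UMIs in cisplatin and 1065 in saline endothelium, and 739 UMIs in cisplatin and 685 in saline proximal tubule.

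**Figure D3:**
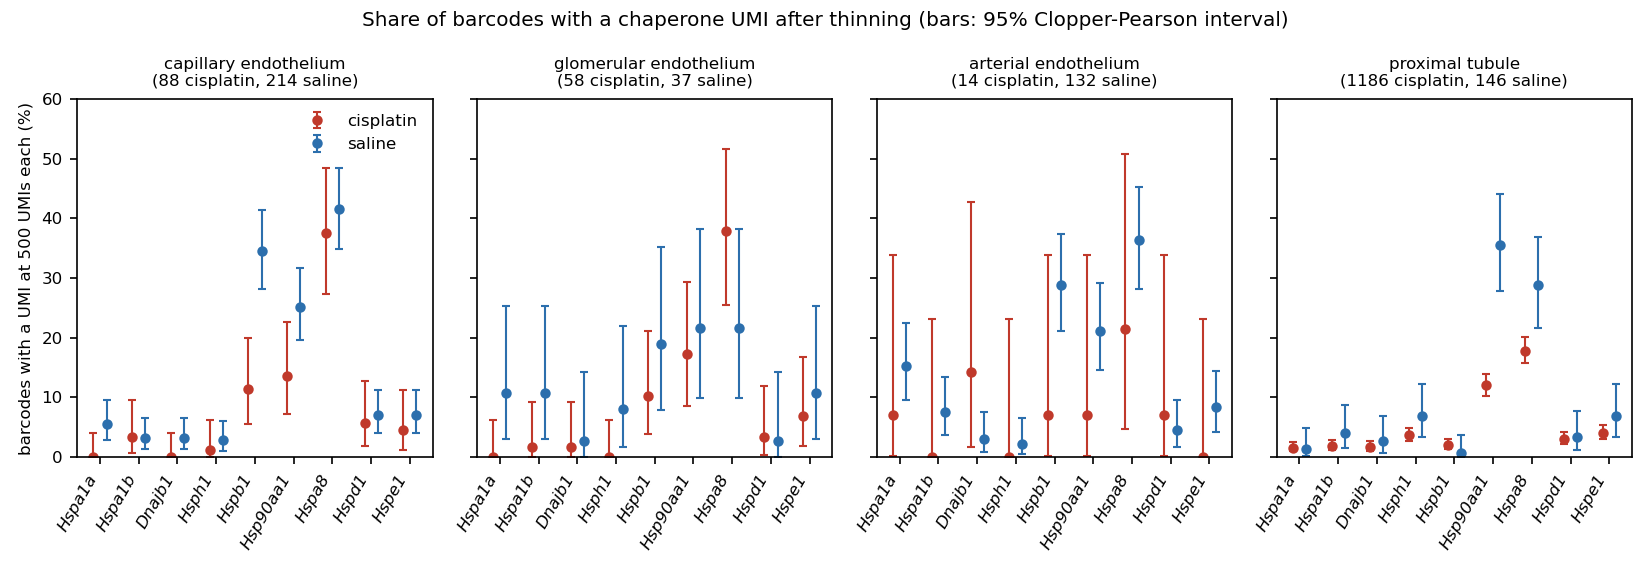
Percentage of barcodes with at least 1 UMI of each chaperone (vertical axis) after reducing every barcode to 500 UMIs, in the vessel gates and proximal tubule, cisplatin points left of saline points, with bars for exact 95% intervals. The Hspb1 share in capillary endothelium is 11.4% in cisplatin and 34.6% in saline.

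In proximal tubule, the reabsorbing epithelium in which cisplatin accumulates, 2 of 9 members were lower in the cisplatin library (Hsph1 and Hsp90aa1), none was higher and 7 were neither. Of all measured genes there, 6.97% were lower and 17.7% higher. Proximal tubule markers stood at 7661 CPM in cisplatin tubule barcodes and 6253 CPM in cisplatin free RNA. In saline they stood at 9464 CPM in tubule barcodes and 7653 CPM in free RNA. The share of free RNA in tubule barcodes was not estimated, and its part in the levels below was not tested. Hsp90aa1 stood at 316 CPM in cisplatin and 887.2 CPM in saline tubule, a ratio of 0.356 (0.286 to 0.447). Hsph1 stood at 79.2 CPM in cisplatin and 194.3 CPM in saline tubule, a ratio of 0.408 (0.256 to 0.675), which became 0.675 at a minimum of 1000 UMIs and 0.579 after thinning, so its call did not hold at those settings. Hspa8 was at 417.6 CPM in cisplatin and 633.7 CPM in saline tubule (0.659, 0.516 to 0.852).

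The HSP70 pair did not follow the endothelial pattern in tubule barcodes. Hspa1a stood at 60.3 CPM (70 UMIs) in cisplatin tubule and 33.8 CPM (4 UMIs) in saline tubule, a ratio of 1.78 (0.666 to 6.73), and 36 of the 70 UMIs came from 1 barcode. Without the barcode richest in members in each library the ratio was 0.868. Hspa1b stood at 54.2 CPM in cisplatin and 59.1 CPM in saline tubule (0.917, 0.42 to 2.37). In the cisplatin library endothelium had 0.932 times as much Hspa1a as tubule (0.656 to 1.32), and in the saline library 11.5 times as much (4.44 to 42.3). The summed level of the 9 members in tubule was 1192 CPM in cisplatin and 2138 CPM in saline, a ratio of 0.557 (0.487 to 0.64).

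Leukocytes can be described in the cisplatin library, since 3 saline barcodes with 15 member UMIs allow no comparison. The 74 cisplatin leukocyte barcodes had 457.9 CPM of Hspa1a, 384.9 CPM of Hspa1b, 1402 CPM of Hspa8 and 518.7 CPM of Hspe1. Within the cisplatin library these levels were 8.15 times (5.96 to 11.2), 5.02 times (3.73 to 6.78), 1.81 times (1.59 to 2.05) and 3.88 times (3.05 to 4.93) the endothelial levels. The HSP70 transcripts were concentrated in few cells: 60 of the 113 Hspa1a UMIs were in 1 barcode, and 11 of 74 barcodes held any. Hsp90aa1 stood at 291.7 CPM, Hspd1 at 166.1 CPM and Hsph1 at 28.4 CPM (7 UMIs). Dnajb1 had 2 UMIs in these barcodes.

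In free RNA 3 of 9 members were lower in the cisplatin library (Hsph1, Hsp90aa1 and Hspd1), none was higher, and 11.4% of all genes were lower and 7.22% higher. The summed level was 1053 CPM in cisplatin and 1910 CPM in saline free RNA, a ratio of 0.551 (0.526 to 0.578). Mitochondrial transcripts were 30.6% of free RNA in cisplatin and 3.84% in saline, and with these left out of the total the ratio was 0.764 (0.728 to 0.801). On that scale Hsph1 (0.443) and Hsp90aa1 (0.331) were still at least 2-fold lower, and Hspd1 was not (0.679, 0.574 to 0.801). Hspa1b (1.37, 1.07 to 1.74), Hspa8 (1.33, 1.23 to 1.44) and Hspe1 (1.68, 1.42 to 1.99) then lay above 1 by less than 2-fold. With mitochondrial UMIs counted, the member with the lowest ratio was Hsp90aa1, at 170.5 CPM in cisplatin and 713.3 CPM in saline (0.239, 0.214 to 0.267).

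Cells and free RNA ordered the members differently. For Hspa1a the ratio was 0.145 in endothelium and 0.53 (0.411 to 0.676) in free RNA, for Hspa1b it was 0.321 and 0.987 (0.773 to 1.26), and their intervals do not overlap between cells and free RNA. Hsp90aa1, Hsph1 and Hspd1 had the lower ratio in free RNA instead, with Hspd1 at 1.19 in endothelium and 0.49 (0.414 to 0.578) in free RNA. The ranges of UMIs per barcode given above were also read, in rising order. Hspa1a and Hspa1b together stood at 0.594 (0.302 to 1.22), 0.759 and 0.775, against 0.212 (0.177 to 0.253) in endothelium. Hsp90aa1 stood at 0.264, 0.249 and 0.217, against 0.479 in endothelium. Hspa8 stood at 0.51, 1.05 and 0.738, on both sides of its 0.755 in endothelium. Hsph1 and Hspd1 were not read singly by range. With mitochondrial UMIs left out, Hspa1a stood at 0.152 in endothelium and 0.734 (0.569 to 0.937) in free RNA, and Hspd1 at 1.25 and 0.679. Free RNA was estimated, from proximal tubule markers, at 6.41% of UMIs in cisplatin and 2.81% in saline endothelium. On that estimate 3.03 of 66 Hspa1a UMIs in cisplatin and 2.04 of 372 in saline would be free RNA. The endothelial gate turns away barcodes rich in these markers, so the estimate can be too low. Collecting duct and distal tubule markers stood at 1602 CPM in cisplatin endothelium and 1735 CPM in cisplatin free RNA. In saline they stood at 95.9 CPM and 2702 CPM. An estimate from other markers was not tested.

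**Figure D4:**
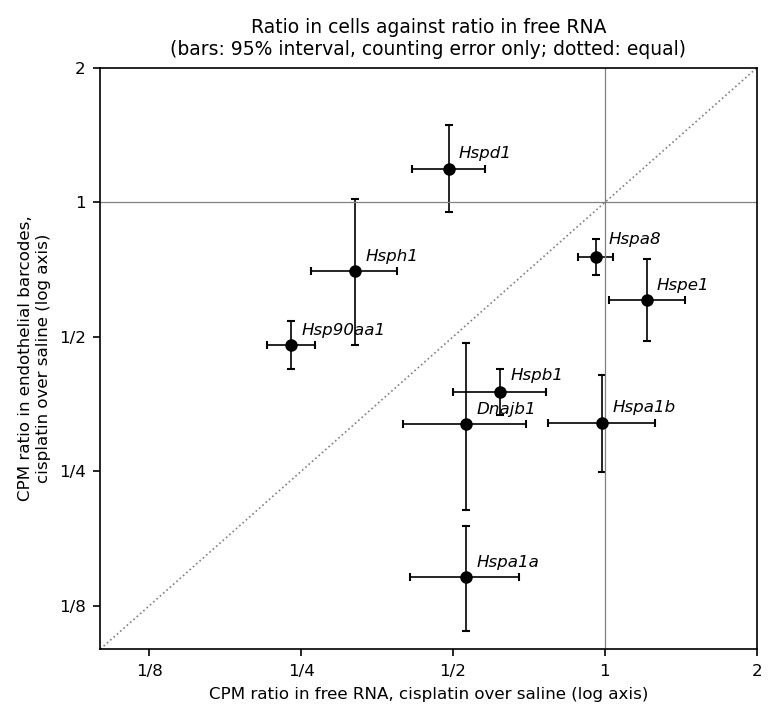
CPM ratio of cisplatin over saline in endothelial barcodes (vertical log axis) against the same ratio in free RNA (horizontal log axis) for the 9 chaperones, with bars for 95% intervals of counting error and a dotted line where both are equal. Hspa1a and Hspa1b lie below the line, and Hsp90aa1, Hsph1 and Hspd1 lie above it.

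The mitochondrial share, a sign of cell damage, was 7.01% of UMIs in cisplatin and 2.17% in saline endothelium, so the ratios were read within ranges of it. Among barcodes of under 5% mitochondrial UMIs (66 cisplatin, 411 saline) the 9 members together had a ratio of 0.467 (0.435 to 0.5), and among those of 5 to 10% (67 cisplatin, 25 saline) a ratio of 0.586 (0.48 to 0.721). From 10 to 20% the ratio was 1.14 (0.77 to 1.75), with 77 cisplatin barcodes and 9 saline ones. The HSP70 pair stood at ratios of 0.152, 0.448 and 0.22 in these ranges, and Hsp90aa1 at 0.368, 0.296 and 1.72, the last from 4 saline UMIs. By depth, the summed ratio was 0.512 in barcodes of 500 to under 1000 UMIs, 0.626 from 1000 to under 3000 UMIs and 0.463 at 3000 UMIs and above.

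Of 18 cytosolic partners of these chaperones, 17 were measured in endothelium, of which 2 were lower and 1 was higher. Their median log2 ratio was -0.36. Dnaja1, another J-domain partner of HSP70, stood at 321 CPM in cisplatin and 846.5 CPM in saline (0.379, 0.335 to 0.429). Hsp90ab1, the constitutive HSP90, stood at 1243 CPM in cisplatin and 2346 CPM in saline (0.53, 0.496 to 0.566). Cryab, a small heat shock protein abundant in the renal medulla, was higher, at 309 CPM in cisplatin and 66.7 CPM in saline (4.63, 3.54 to 6.14). In proximal tubule Cryab stood at 426.2 CPM in cisplatin and 160.5 CPM in saline. The collecting duct and distal tubule markers stood there at 1369 CPM in cisplatin and 2619 CPM in saline. Arterial endothelium held 0 Cryab UMIs in cisplatin and 40 in saline. Of the 363 Cryab UMIs in cisplatin endothelium, capillary barcodes held 21 and glomerular barcodes 119. The rest lay in unassigned endothelium, where collecting duct and distal tubule markers stood at 4202 CPM in cisplatin and 98.7 CPM in saline. The source of these Cryab UMIs was not tested. The second lower partner was Hsf2, named after its value was seen, with 8 cisplatin and 19 saline UMIs.

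In lists of chaperonin, endoplasmic reticulum and mitochondrial chaperones no gene was 2-fold lower in cisplatin endothelium taken as a whole. None of the 8 subunits of the cytosolic chaperonin CCT and none of 14 chaperones of the endoplasmic reticulum was 2-fold apart, with median log2 ratios of 0.13 and 0.22. Cct7 had a ratio of 1.05 (0.833 to 1.32) and Cct6a of 0.893 (0.705 to 1.13), while Hsp90b1, the HSP90 of the endoplasmic reticulum, had 0.644 (0.574 to 0.722) and the lectin chaperone Calr 1.08 (0.933 to 1.26). Of 7 mitochondrial partners 2 were higher and none lower (median 0.69): the mitochondrial HSP90 Trap1 at 2.62 (1.55 to 4.65) and the protease Lonp1 at 2.09 (1.19 to 3.82). The mitochondrial HSP70 Hspa9 had 1.62 (1.23 to 2.16) and its exchange factor Grpel1 1.07 (0.784 to 1.48). By vessel gate, 1 of 8 CCT, 2 of 12 endoplasmic reticulum and 1 of 4 mitochondrial genes were lower in arterial endothelium, and none was higher. There 19.5% of all genes were lower, and Hspa9 (0.138) rested on 1 cisplatin UMI. In glomerular endothelium 1 of 12 endoplasmic reticulum genes was lower and 2 were higher. There 3 of 8 CCT and 2 of 7 mitochondrial genes were higher, against 26.1% of all genes.

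Immediate early genes, which respond within minutes to many stimuli, gave 1 lower and 1 higher of 12 measured, with a median log2 ratio of -0.06. Fos was lower, with 13 cisplatin and 29 saline UMIs (0.366, 0.175 to 0.727), and Junb was higher (2.1, 1.52 to 2.96). Jun had a ratio of 0.534 (0.453 to 0.629) and Jund of 0.863 (0.754 to 0.988). The vessel gates differed: 0 of 9 measured were lower and 2 higher in capillary endothelium (median 0.61). In glomerular endothelium 3 of 9 were lower and 1 higher (median -1.04), and in arterial endothelium 2 of 9 and 1 (median 0.11). The shares of all genes in these gates are given above. Junb had a ratio of 3.49 (1.68 to 8.14) in capillary and 0.364 (0.199 to 0.719) in glomerular endothelium. Among 6 housekeeping genes, Tpt1 had 0.853 (0.816 to 0.891), Eef1a1 0.959 (0.913 to 1.01) and Gapdh, the glycolytic enzyme, was higher at 2.65 (2.3 to 3.06), with a median of 0.17.

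The members shared a profile over gates and libraries only in part. Over 12 profiles (5 gates and free RNA in each library), a member's level had a Pearson r with the mean member profile of 0.15 for Hsph1 up to 0.69 for Hspa8, with Hspa1a at 0.68. Among 3060 other genes the highest r were those of Calca (0.79), Nedd8 (0.79), Gm10076 (0.77), Hsp90ab1, Acbd3 and Psma7 (0.71 each). Calca, the gene of calcitonin and its related peptide, stood at 0 CPM in cisplatin and 418 CPM in saline arterial endothelium. Each member is itself part of the mean profile, which raises its r. The saline leukocyte profile rests on 3 barcodes with 15 member UMIs. Points of 1 library share its depth and free RNA, so these values are descriptions.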

How the data were processed

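The authors deposited unfiltered UMI count matrices, raw whole numbers with no normalization, of 19994105 UMIs for cisplatin and 5879496 for saline. Cell Ranger 6.0.1 and the mm10 build are named in the submitters' processing notes, while per the file headers another version of Cell Ranger wrote the files. Cell calls by the authors are not given in the sources used here.

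The 9 members, the marker genes and the gene lists were chosen with earlier results of these data known. Kept barcodes had at least 500 UMIs and at most 20% mitochondrial UMIs, and doublets were not removed. A gate needed at least 2 distinct markers of a class and more than for each other class; endothelium was split by the most distinct vessel markers of 8 per type. CPM ratios have exact conditional binomial 95% intervals and shares Clopper-Pearson ones, which cover counting error only; genes with at least 20 UMIs counted as measured, and shares were compared after thinning each barcode to 500 UMIs. With 1 library per group no test was possible and no p-value is given. Barcodes of 1 library are not replicates, and doublets and free RNA can put UMIs of other cells into a gate.

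All 9 members were computed in every gate, and sparse values are given as ranges or left out. From each list, the 2 genes with the most endothelial UMIs were named, with up to 2 past 2-fold whose interval bound lay farthest from 1. The 6 most similar genes were ranked by Pearson r of log2(CPM + 50) with the mean standardized member profile, among genes with at least 200 UMIs. Promoter letters were read from RefSeq sequences of GRCm38.p6, and gene positions from a GRCm38 annotation. The ratio and its interval were tested on simulated counts. Alternatives covered depth, mitochondrial limit, markers, free RNA, weighting and thinning. Numpy 2.4.6, scipy 1.17.1 and pandas 2.3.3 were used.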

Additional observations from a re-analysis of the deposited data

Results flagged for a closer look

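Hspa8 stood apart between vessel gates under the same comparison: its ratio of cisplatin to saline was 1.54 in glomerular endothelium (870.7 CPM in cisplatin, 563.8 CPM in saline), against 0.715 in capillary endothelium, 0.502 in arterial endothelium and 0.659 in proximal tubule. The directions were opposite, and the difference between gates was not tested, since each gate has 1 library per treatment. In the cisplatin glomerular gate 119 of the 510 Hspa8 UMIs came from 1 barcode, and podocyte markers summed to 1257 CPM, against 98.1 CPM in saline. The ratio was 1.36 without barcodes that held a podocyte or distal tubule marker, and 1.36 without the barcode with the most member UMIs in each library.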

How the results depend on the processing

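The ratio of the summed members in endothelium (0.518) was 0.47 at a mitochondrial limit of 10%, 0.476 with 3 distinct markers, 0.488 without the barcode with the most member UMIs, 0.573 after thinning to 500 UMIs, 0.597 without barcodes with podocyte or distal tubule markers, and 0.488 stratified by vessel gate; the last pair of settings, and leaving out the barcode richest in a given member, were chosen after seeing the data. In proximal tubule (0.557) it was 0.668 at a minimum of 1000 UMIs and 0.47 after thinning, and the leukocyte value, which rests on 3 saline barcodes and gives no comparison, was 1.04 with all barcodes and 1.98 without the barcode with the most member UMIs. The number of members at least 2-fold lower in endothelium (5) was 4 with mitochondrial UMIs left out of the total and 4 after thinning, 6 at a 1.5-fold limit, and 5 under the other settings run. Without barcodes with podocyte or distal tubule markers those 5 were not the same: Hspb1 left (0.602) and Hsph1 entered (0.49, against 0.702 with all barcodes). Over the capillary, glomerular and arterial gates and proximal tubule, 19 values of members were at least 2-fold lower, against 7 after thinning and 12 without barcodes with podocyte or distal tubule markers, where fewer members reached 20 UMIs. The share of all genes is given at the main setting only. Counts of lower members at changed settings therefore have no background beside them. Of 407 values of members under alternatives, 378 stayed within their counting interval and 29 moved out of it. Of the 215 belonging to members at least 2-fold lower, 201 stayed at or below 0.5 and none turned higher. These totals include proximal tubule values with free RNA subtracted and without barcodes with podocyte or distal tubule markers. Neither setting acted on tubule barcodes, so those values equal the main ones and could not move. The cause of the shifts that were seen was not tested. No paired analysis was possible because each group has 1 library. Depth limits the arterial gate of 14 cisplatin barcodes and the leukocyte gate of 3 saline barcodes, where a count of 3 UMIs equals 36.2 CPM and 629.2 CPM.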

Other observations

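The 1712 cisplatin barcodes over the mitochondrial limit, which enter no comparison above, held 1608881 UMIs. Hspa1a stood at 25.5 CPM in them, Hspa1b at 37.3 CPM, Hspb1 at 57.2 CPM, Hsp90aa1 at 230 CPM, Hspa8 at 285.9 CPM and Hspe1 at 62.8 CPM. The Hspb1 level there was near the 58.5 CPM of cisplatin proximal tubule barcodes and the 57.5 CPM of cisplatin free RNA, and below the 353.3 CPM of cisplatin endothelium. The 3 saline barcodes over the limit held 3 member UMIs in all.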
